A study of Mus musculus with 6 samples.

Results

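The host genes described here were the mouse genes of mRNA processing and splicing whose circular RNAs were counted in liver. A circular RNA (circRNA) forms when the end of an exon is joined back to the start of the same or an earlier exon, and it is counted by the back-spliced reads that cross that junction. A host gene was taken as a member when its listed Gene Ontology (GO) terms held mRNA processing or RNA splicing. It was left out when they also held chromatin organization, covalent chromatin modification, protein ubiquitination, protein deubiquitination, rhythmic process or lipid metabolism. Of 3468 host genes, 105 carried either of the first pair of terms and 5 of these were removed by the other terms, which left 100 members. Both terms were listed for 67 members, mRNA processing alone for 27 and RNA splicing alone for 6.

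Livers came from male C57BL/6J mice of 12 weeks of age that had been fed either a high-fat diet (HFD, 3 libraries) or a low-fat control diet (LFD, 3 libraries) and were fasted before the tissue was taken. No genetic change was named for either group, and the question was how circular RNA in the liver differs between diet-induced obese and control mice. Total RNA was depleted of ribosomal RNA. The study's methods also describe digestion of linear RNA with RNase R, whereas the sample labels do not.

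Before it leaves the nucleus, a messenger RNA is capped, freed of its introns by the spliceosome, and cut and polyadenylated at its end. SR proteins and hnRNP proteins bind the transcript and promote or repress the use of individual exons, and kinases of the CLK, SRPK and CDK families phosphorylate the SR proteins and the RNA polymerase. Circular RNAs are made by the same spliceosome, and several of these proteins, among them the RNA-binding protein quaking (Qk), are known to alter how much circular RNA other genes give.

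The 6 libraries held between 5384 and 6590 back-spliced reads. Of 10 genes typical of hepatocytes, 9 had back-spliced reads, among them Alb and Cyp2e1, although linear RNA of these genes was not counted. The study's library statistics put HFD library 1 and LFD library 3 in a higher class of base quality than the other 4 libraries, so that each diet holds 1 library of the higher class. No library pair of the same diet agreed within sampling noise (0 of 6 pairs, chi-square test of counts). Because a bulk sample was counted, fewer cells of a type and less RNA per cell cannot be told apart.

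The members gave 209 circRNA entries and 1166 back-spliced reads, which was 3.22% of all reads. Most members were sparse. The median was 4 reads over the 6 libraries, beside 3 reads for the 3368 other host genes, and 45 members had 3 reads or fewer. Reads were found in a single library for 38 members (38.0%, against 47.4% of the other host genes) and in all 6 libraries for 14 members (14% against 9.6%). The 10 members with the most reads held 641 reads, or 55.0% of the total. Because every read of a circle crosses its 1 junction, the counts were not divided by length and were compared between genes as reads. The counts of a gene are sums over its circles, and how they depend on gene length or exon number was not tested.

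The 10 leading members were Gm21992 with 112 reads, Ptbp3 with 80, Cnot6l with 77, Gm20521 with 70, Rbm4 with 61, Pan3 with 60, Tra2b with 57, Cdk12 and Cstf3 with 42 each, and Tent4a with 40. Neighbours in this order from Ptbp3 to Tra2b lay close together, and the order changed from library to library. Ptbp3 led in HFD library 1 with 20 reads, Cnot6l in HFD library 2 with 20 reads, Gm21992 in HFD library 3 with 25, in LFD library 1 with 26 and in LFD library 2 with 20, and Tent4a in LFD library 3 with 16.

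Junctions of the leading circles of 9 members are shown to identify the molecules that were counted, with at least 1 circle from each of the larger functional groups. Together they held 341 reads, or 29.2% of the members' reads, where the 28 reads of Srpk2 include those of a partner entry that starts 1 bp away. In each sequence the last 20 bases of the circle are in lower case and the first 20 bases, to which they are joined, are in capitals. The sequences were read 5′ to 3′ in the sense of the transcript from the transcripts of GENCODE M21 (GRCm38), and circles that hold untranslated sequence are not shown.
Tra2b circRNA2077: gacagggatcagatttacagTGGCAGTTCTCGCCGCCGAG
Srpk2 mmu_circ_0001325: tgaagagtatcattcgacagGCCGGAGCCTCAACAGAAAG
Hnrnpll mmu_circ_0000819: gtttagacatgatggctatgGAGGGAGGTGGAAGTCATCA
Qk mmu_circ_0006531: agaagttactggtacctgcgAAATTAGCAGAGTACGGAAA
Prpf6 mmu_circ_0009694: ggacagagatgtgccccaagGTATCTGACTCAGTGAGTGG
Cstf3 mmu_circ_0001053: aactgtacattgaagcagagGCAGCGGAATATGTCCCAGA
Tent4a mmu_circ_0000477: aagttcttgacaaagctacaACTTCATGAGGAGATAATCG
Pan3 mmu_circ_0001431: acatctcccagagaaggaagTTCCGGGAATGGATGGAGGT
Gm20521 mmu_circ_0005281: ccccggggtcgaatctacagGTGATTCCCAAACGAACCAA
The circle of Tra2b joined exons 6 and 7 of 9 (chr16:22248436-22249133, minus strand, 144 bases after splicing). That of Srpk2 held exons 2 to 6 of 15 (chr5:23540375-23565265, minus strand, 544 bases), that of Hnrnpll exons 2 to 7 of 13 (chr17:80044494-80053641, minus strand, 685 bases) and that of Qk exons 2 to 4 of 8 (chr17:10238893-10282981, minus strand, 404 bases). The circle of Prpf6 held exons 7 and 8 of 21 (chr2:181631435-181632087, plus strand, 252 bases), that of Cstf3 exons 2 and 3 of 21 (chr2:104608871-104609186, plus strand, 198 bases) and that of Tent4a exons 2 to 4 of 13 (chr13:69512890-69515903, minus strand, 292 bases). The circle of Pan3 spanned exons 2 to 4 of 19 (chr5:147450653-147455188, plus strand, 260 bases). All of these exons were coding.

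Gm20521 gave a circle of a single exon, exon 8 of 9 (chr14:54897121-54897272, plus strand, 152 bases), which held all 70 of its reads. This exon has the same start and end as an exon of Pabpn1, which encodes the nuclear poly(A)-binding protein, and the reads of the circle could equally belong to Pabpn1, for which 0 reads were listed as host. Gm21992 is a similar case. It is listed by RefSeq as the Rbm14-rbm4 readthrough gene, it overlaps Rbm4 on the minus strand of chromosome 19, and reads of its circles cannot be assigned to it with certainty. Its leading circle (chr19:4792399-4794009) had 104 reads, and that of Rbm4 (chr19:4784725-4785567) had 57 reads. Neither circle had both ends on exons of a single transcript of GENCODE M21, and no exon number is given for them.

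Exon usage in the members was close to that of other host genes. Of 181 exonic circles, 175 could be placed on a transcript, of which 142 held coding exons only, 30 held coding and untranslated exons and 3 held no coding exon. The coding start lay inside 25 circles, among them the leading circles of Cnot6l (exons 2 to 4 of 12, chr5:96128943-96134132, minus strand, 395 bases) and of Ptbp3 (exons 2 to 4 of 14, chr4:59514274-59524476, minus strand, 399 bases). The median circle held 3 exons in the members and 3 in the other host genes, with a median spliced length of 385 against 399 bases. Circles of 2 exons made up 37.0% of exonic circles in the members and 31.5% in the other host genes, and intronic circles made up 13.4% and 13.2% of entries. The spliced length was a multiple of 3 for 33.1% of the circles against 36.9%.

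A start at exon 2 was listed for 30.9% of the members' placed circles and for 28.2% of those of other host genes, and these circles held 47.4% against 36.5% of the reads. Among host genes with at least 20 reads, 16 were members and 375 were not. The circle with the most reads could be placed for 14 of these members and began at exon 2 in 7 of them (50.0%), namely in Ptbp3, Cnot6l, Pan3, Cstf3, Tent4a, Srpk2 and Qk, beside 40.1% of the other host genes. The introns beside the circles were shorter in the members, with a median of 4771 bases upstream and 3074.5 bases downstream against 6992 and 5291.5 bases. These are counts over the pooled libraries and were not tested.

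A single circle held more than 50% of the reads in 14 of the 16 members with at least 20 reads (87.5% against 73.9% of the other host genes of that depth), and its median share was 93.15% against 72.73%. Tent4a, Srpk2 and Gm20521 each gave 1 circle. The exceptions were Ddx17, an RNA helicase, and Rbm27, whose leading circles held 48.28% and 44.44% of the reads. Rbm27, Pan3 and Zfp638, with 6 entries each, had the most entries of all members.

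**Figure D1:**
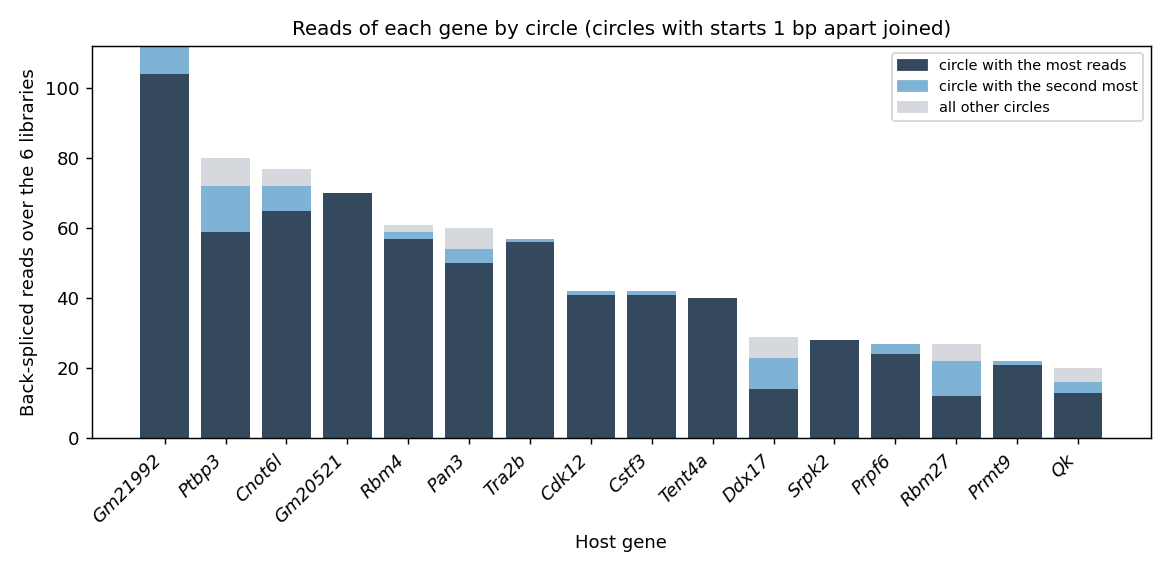
Back-spliced reads over the 6 libraries (vertical axis) for the 16 host genes of mRNA processing and splicing with at least 20 reads (horizontal axis), divided into the circle with the most reads, the next one and all others, with entries whose starts lie 1 bp apart joined. In 14 of the 16 genes the darkest block is more than 50% of the bar.

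Some of the entries of a gene differed only by 1 bp at the start. There were 7 such pairs among the members, in Cdk12, Srpk2, Prmt9, Rbm27, Taf15 and Rbm39, of which Rbm27 had 2 pairs. Over the 7 pairs and 6 libraries, 26 combinations had reads and 0 had reads at both entries, so that a library listed all its reads of a pair at 1 entry. A combination with a single read could not have had both. The 6 reads of Srpk2 in HFD library 1 and the 3 reads of Cdk12 in the same library were all listed at the partner entry. Sums per gene, as used below, contain both entries of a pair and do not depend on this.

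The share of back-spliced reads that came from the members was 2.71%, 3.26% and 3.45% on HFD against 4.07%, 3.44% and 2.56% on LFD, here and below in the order of library numbers. The mean was 3.14% ± 0.383 (SD, n = 3) on the HFD and 3.35% ± 0.757 (SD, n = 3) on the LFD, a difference of -0.214 percentage points that was smaller than either SD, and the ranges overlapped. The lowest shares in each diet were those of the 2 libraries of the higher quality class, with 95% Wilson intervals of 2.34% to 3.14% in HFD library 1 and 2.20% to 2.98% in LFD library 3. The lowest of the other 4 libraries, HFD library 2, had an interval of 2.86% to 3.72%. Without the 10 members with the most reads, the shares of these 2 libraries were 1.17% and 1.10%, again below those of the other 4 libraries, which lay between 1.43% and 1.95%. Intervals cover counting error only.

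**Figure D2:**
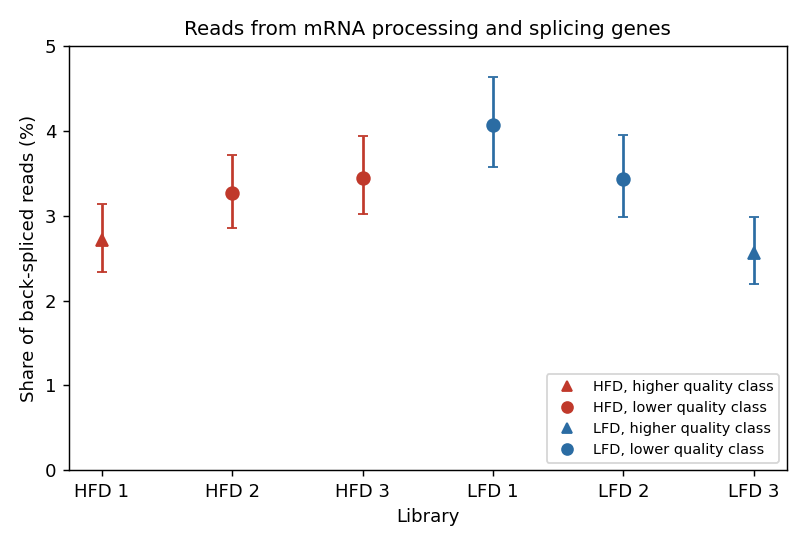
Share of back-spliced reads from the 100 host genes of mRNA processing and splicing (vertical axis, percent) in each of the 6 libraries (horizontal axis), with 95% Wilson intervals as bars, diet by colour and the class of base quality by symbol. The triangles, HFD library 1 with 2.71% and LFD library 3 with 2.56%, are the lowest of their diets.

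SRPBM is the normalized signal deposited by the authors, the reads of a junction times 1 factor per library. In these libraries 1 read was worth between 0.2294 and 0.2768 SRPBM. The members summed to 50.1 ± 8.81 SRPBM (SD, n = 3) on the HFD and 51.1 ± 8.03 SRPBM (SD, n = 3) on the LFD. Between 43 and 53 members had reads in an HFD library and between 40 and 43 in an LFD library. The mean number was 46.7 ± 5.51 (SD, n = 3) against 41.3 ± 1.53 (SD, n = 3), and the ranges met at 43. All back-spliced reads numbered 6418, 6590 and 6005 on HFD against 5384, 5531 and 6290 on LFD. The part of this depth in the number of members detected was not tested. Intronic circles of members gave 18, 8 and 2 reads on HFD against 6, 3 and 5 on LFD, with overlap between the diets.

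No member differed between the diets by the thresholds of the study, which were an unadjusted p under 0.05 and a change of 1 or more log2 units in either direction. With the edgeR quasi-likelihood test over the sums per host gene, 62 members had reads in at least 2 libraries and were tested, and 0 passed, with 0 at an unadjusted p under 0.05 and 0 by DESeq2 or by limma. Over all host genes, 42 of 1834 tested passed, which was 2.29%, of which 23 were higher and 19 lower in HFD, and none had an adjusted p under 0.05 in edgeR. The median log2 fold change, HFD minus LFD, was -0.09 over the 62 members and -0.09 over all host genes tested. Of the members, 29 had a higher and 33 a lower estimate in HFD. With each library left out in turn the number of members that passed lay between 0 and 2, and without LFD library 1 the medians were 0.23 and 0.10. The 42 host genes that passed had at least 7 reads each. Of the 62 members, 26 had fewer and 36 had at least as many, beside 1018 of the 1834 host genes tested with at least as many. The p-values and the approximate SEs given below rest on a spread between libraries that edgeR largely shares across genes. They follow the number of reads more than the spread of a single gene. Cdk13 and Cpsf6, with 11 reads each, had approximate SEs of 1.571 and 1.567, although the reads of Cpsf6 were far less even between libraries.

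**Figure D3:**
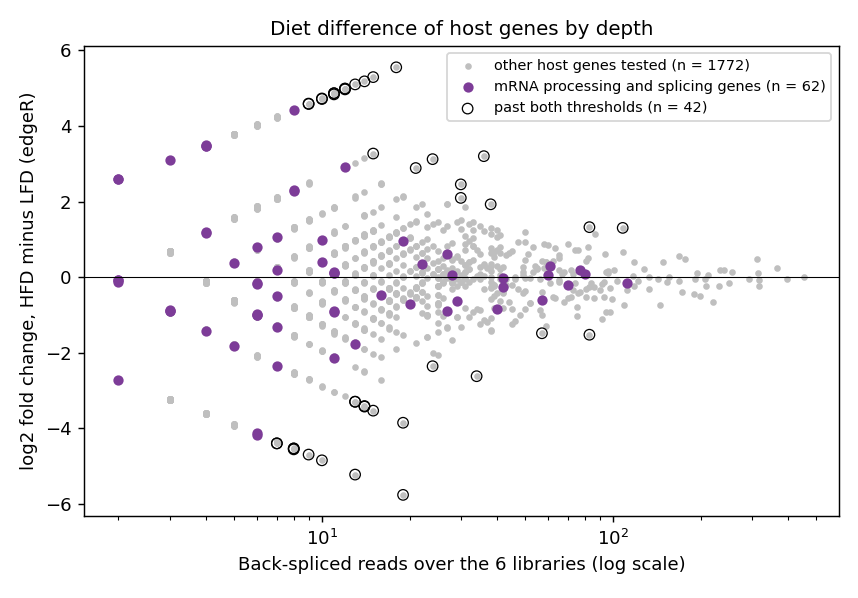
Log2 fold change, HFD minus LFD, from edgeR (vertical axis) against back-spliced reads over the 6 libraries (horizontal axis, log scale) for all host genes tested, with the 62 host genes of mRNA processing and splicing in purple and the 42 host genes past both thresholds circled. No purple point is circled, and the members with at least 40 reads lie within 1 log2 unit of 0.

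SR proteins and related splicing activators were represented by 11 members with 96 reads, 6, 13 and 20 reads on HFD against 30, 15 and 12 on LFD, with overlap between the diets. All 6 members tested had lower estimates in HFD, with a median log2 fold change of -0.96, and 0 passed, beside 52.9% of all host genes with lower estimates. The uniform direction depended on the filter, since with no filter 7 of the 11 members had lower and 4 had higher estimates. Without LFD library 1, which held 30 of the 96 reads, 4 of the 6 had lower estimates, and in the 4 libraries of the lower quality class 5 of 6. The median was -0.49 without HFD library 1 and -2.02 without HFD library 2, and without LFD library 2 Sfswap, with 6 reads in all, passed the unadjusted thresholds (edgeR, adjusted p = 0.920). Tra2b, a splicing activator related to the SR proteins, accounted for 57 of the reads. It had 1, 8 and 15 reads on HFD against 17, 12 and 4 on LFD. Both diets therefore spanned most of the range, and the 2 libraries of the higher quality class were the lowest of their diets. The log2 fold change was -0.60 with an approximate SE of 0.70 (edgeR, adjusted p = 0.976). The only read of HFD library 1 lay on another circle than the one shown above. Rsrc1, an arginine and serine rich protein of splicing, had 0, 2 and 2 against 5, 1 and 1 reads. Scaf8, which binds the tail of RNA polymerase II, had 0, 2 and 0 against 0, 0 and 4 reads.

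Kinases of the SR proteins and related kinases gave 83 reads in 4 members. Cdk12, which phosphorylates the tail of RNA polymerase II, had 3, 13 and 6 reads on HFD against 7, 13 and 0 on LFD. The mean of 1.87 ± 1.33 SRPBM (SD, n = 3) on the HFD and 1.82 ± 1.80 SRPBM (SD, n = 3) on the LFD differed by far less than the spread. Its leading circle held exons 5 to 7 of 8 of a noncoding transcript of the gene (chr11:98263470-98267858, plus strand, 322 bases). Srpk2, an SR protein kinase, had 6, 4 and 5 reads against 7, 4 and 2, and its log2 fold change was 0.06 with an approximate SE of 0.98 (edgeR, adjusted p = 0.976). Here the HFD libraries lay within the range of the LFD libraries. Cdk13, the paralog of Cdk12, was detected in all 6 libraries with between 1 and 3 reads.

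Among hnRNP and PTB proteins, which mostly repress exons or bind introns, 7 members gave 134 reads. Ptbp3, a polypyrimidine tract-binding protein, had 20, 13 and 10 reads on HFD against 16, 13 and 8 on LFD. Its SRPBM was 3.53 ± 0.970 (SD, n = 3) on the HFD and 3.32 ± 1.10 (SD, n = 3) on the LFD, and the log2 fold change was 0.07 with an approximate SE of 0.60 (edgeR, adjusted p = 0.976). The diets overlapped almost completely. Hnrnpll, a splicing regulator known from lymphocytes, had 4, 5 and 4 reads against 0, 2 and 4. The HFD libraries were thus more even than the LFD libraries, and the log2 fold change of 0.95 with an approximate SE of 1.23 did not pass (edgeR, adjusted p = 0.976). Taf15, an RNA-binding protein of the FET family, had 0, 2 and 0 reads against 4, 1 and 4. Its groups overlapped at 1 and 2 reads, and it did not pass (edgeR, adjusted p = 0.924), whereas it passed the unadjusted thresholds without HFD library 2 (adjusted p = 0.922). Of 5 members of the list tested, 4 had higher estimates in HFD and 0 passed. This direction did not hold without HFD library 1 or in the 4 libraries of the lower quality class, where 2 of 5 had higher estimates and the median of 0.95 became -0.26 and -0.52.

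Of the functional lists, the core spliceosome had the most members, 20, but only 89 reads. Prpf6, a scaffold of the tri-snRNP particle, had 4, 6 and 0 reads on HFD against 6, 8 and 3 on LFD. The diets overlapped, and its log2 fold change was -0.89 with an approximate SE of 1.0 (edgeR, adjusted p = 0.976). The helicases Dhx15, with 0, 3 and 4 against 1, 0 and 0 reads, and Ddx46, with 0, 4 and 0 against 3, 0 and 0 reads, were close to the floor of 3 reads in each library. Of 10 members tested, 5 had higher and 5 had lower estimates, and 0 passed.

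Regulators of alternative splicing gave 167 reads in 13 members. Rbm4, which promotes the use of exons in muscle and other tissues, had 13, 16 and 6 reads on HFD against 4, 10 and 12 on LFD, with a log2 fold change of 0.29 and an approximate SE of 0.68 (edgeR, adjusted p = 0.976). Each diet had a low library, and the ranges overlapped. Rbm27 had 4, 4 and 9 reads against 6, 4 and 0. Qk, which is known to promote circle formation, had 1, 4 and 3 reads against 5, 7 and 0, and the library without reads was that of the higher class in the LFD group. Mbnl1, Mbnl2, Celf1 and Rbfox2, known regulators of exon use in many tissues, had 7, 7, 6 and 6 reads in total.

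Cleavage and polyadenylation was represented by 13 members with 124 reads. Cstf3, a subunit of the cleavage stimulation factor, had 7, 5 and 8 reads on HFD against 6, 5 and 11 on LFD. All 3 HFD libraries lay within the range of the LFD libraries in reads, and the SRPBM was 1.68 ± 0.442 (SD, n = 3) against 1.96 ± 0.821 (SD, n = 3). Tent4a, a noncanonical poly(A) polymerase, had 9, 1 and 5 reads against 6, 3 and 16. Its SRPBM of 1.22 ± 0.911 (SD, n = 3) on the HFD and 2.22 ± 1.78 (SD, n = 3) on the LFD overlapped widely, with a log2 fold change of -0.85 and an approximate SE of 0.83 (edgeR, adjusted p = 0.976). Unlike Tra2b and Cdk12, Tent4a was highest in the 2 libraries of the higher quality class. Cpsf6, a subunit of cleavage factor I, had 1, 0 and 3 reads against 6, 0 and 1. In this list 9 members were tested, of which 6 had lower estimates, and 0 passed. The direction turned without LFD library 1 or LFD library 3, where 6 of 9 had higher estimates (medians of 1.85 and 0.13 against -0.27), and 5 of 9 were higher in the 4 libraries of the lower quality class.

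The other lists were nearly empty. Factors of the exon junction complex and of mRNA export had 12 reads in 7 members, led by Thoc1 with 5 reads, Acin1 with 2 and Casc3 with 1, and Virma, a subunit of the m6A writer complex, had 1 read. Ern1, which encodes the endoplasmic reticulum stress sensor that splices the Xbp1 mRNA, had 0, 1 and 0 reads on HFD against 3, 2 and 1 on LFD. It was the 1 member of 62 whose SRPBM values did not overlap between the diets, beside 114 of 1834 host genes (6.22%). The groups were separated only by the worth of a single read in HFD library 2 and LFD library 3, and the test did not pass (edgeR, adjusted p = 0.976).

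In the list of members with other roles, 23 genes gave 453 reads. Gm21992 had 14, 17 and 25 reads on HFD against 26, 20 and 10 on LFD. Its SRPBM was 4.75 ± 1.79 (SD, n = 3) on the HFD and 5.03 ± 2.19 (SD, n = 3) on the LFD, and the log2 fold change was -0.15 with an approximate SE of 0.51 (edgeR, adjusted p = 0.976). Cnot6l encodes a deadenylase, an enzyme that shortens the poly(A) tail, and Pan3 encodes the regulatory subunit of another. Cnot6l had 11, 20 and 12 reads against 14, 10 and 10, and Pan3 had 7, 8 and 17 against 7, 10 and 11. In both genes a single HFD library was the highest, and the other 2 lay within the range of the LFD libraries in reads. Gm20521 had 14, 13 and 7 reads against 11, 15 and 10. The smallest p among all members was that of Fam172a, singled out after its values were seen, with 2, 0 and 6 reads against 0, 0 and 0 (edgeR, adjusted p = 0.798). It passed both unadjusted thresholds without TMM scaling (adjusted p = 0.809).

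**Figure D4:**
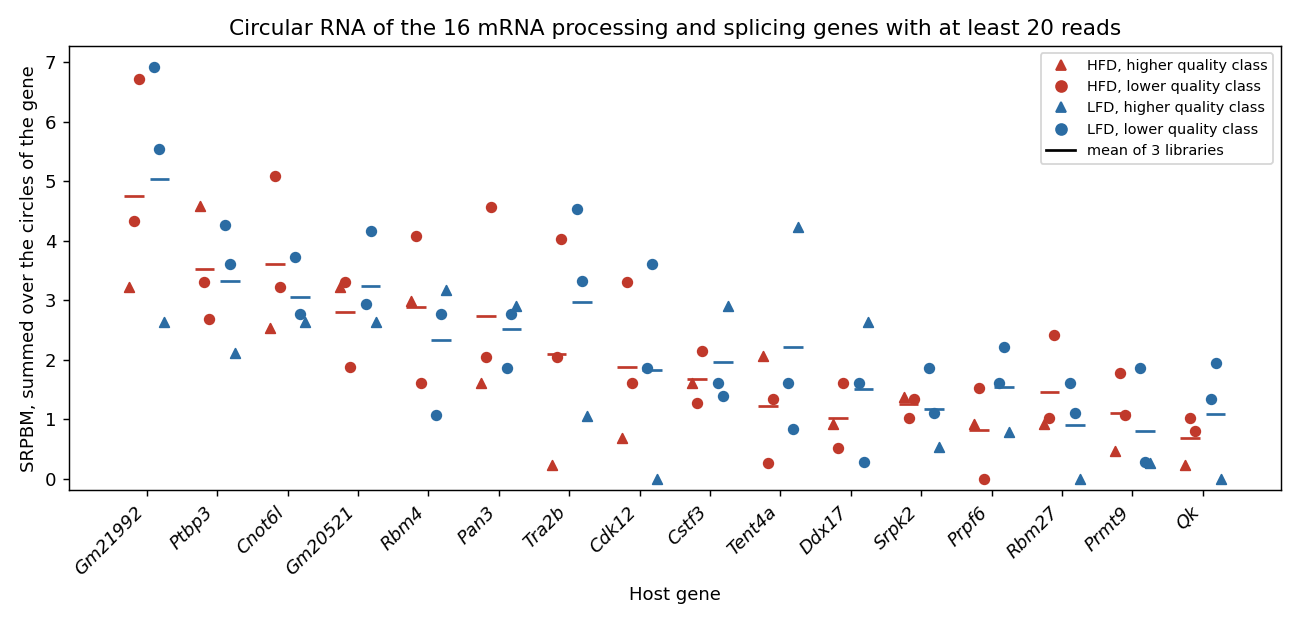
SRPBM summed over the circles of each gene (vertical axis) for the 16 host genes of mRNA processing and splicing with at least 20 reads (horizontal axis), with 1 symbol per library, diet by colour, class of base quality by symbol and the mean of 3 libraries as a line. The diets overlap in all 16 genes, and the triangles are the lowest of both diets for 7 genes (Gm21992, Cnot6l, Tra2b, Cdk12, Rbm27, Prmt9 and Qk) and the highest of both for 1, Tent4a. Other host genes were not counted in this way.

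When single circles were tested instead of sums per gene, 51 entries of members were tested and 1 passed both thresholds, beside 49 of 2041 entries of all host genes (2.4%). This was circRNA4903 of Gm21992 (chr19:4787362-4794009, minus strand), which had 0, 0 and 0 reads on HFD against 3, 3 and 2 on LFD (edgeR, adjusted p = 0.694). Every library was at or below the floor of 3 reads, which was worth between 0.688 and 0.83 SRPBM, and no fold change is given. The entry did not pass by DESeq2 or with the class of base quality in the model, nor when HFD library 1, HFD library 3, LFD library 1 or LFD library 2 was left out. The end of this circle is that of the leading circle of Gm21992, which had 14, 17 and 25 against 23, 17 and 8 reads and a log2 fold change of 0.01. The entry mmu_circ_0012877 of Cnot6l (chr5:96106216-96134132, minus strand, exons 2 to 5 of 12), singled out after its values were seen, had the opposite pattern with 2, 2 and 3 reads against 0, 0 and 0 (edgeR, adjusted p = 0.694). Both circles had 0 reads in all 3 libraries of a diet while their genes were read in all 6 libraries.

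Of the 16 members with at least 20 reads, 7 had the lowest SRPBM of each diet in its library of the higher quality class and 1, Tent4a, the highest. The same was not counted for other host genes of that depth, and the count does not show a trait particular to the members. Because Tra2b, Cdk12 and Tent4a followed the class, the class was tested over all host genes with diet in the model, a comparison added after these values were seen. Of the 62 members, 3 passed both thresholds, beside 58 of 1834 host genes (3.16%), and none had an adjusted p under 0.05. Of the 16 members with at least 20 reads, 1 passed as higher and 2 as lower in the higher class. Beside them, 16 and 26 of the 391 host genes of that depth passed. Tra2b was lower in the higher class with a log2 fold change of -2.38 (edgeR, adjusted p = 0.642). Cdk12 was lower with -2.64 (edgeR, adjusted p = 0.670), and Tent4a was higher with 1.68 (edgeR, adjusted p = 0.670). Since these genes prompted the comparison, their values are a description. The median log2 fold change between the classes was -0.39 over the members and 0.08 over all host genes, and 61.3% of the members against 47.2% of all host genes had lower estimates in the higher class. With at least 20 reads the medians were -0.37 and -0.05, and 62.5% against 52.2% had lower estimates. With the class in the model, the log2 fold change between the diets was 0.23 for Cdk12, and 0 members passed. Base quality stands for whatever separated these libraries, and its part in the counts was not tested.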

How the data were processed

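Liver RNA from 3 HFD and 3 LFD libraries was assigned to diets by the sample labels. Per the study's methods, reads were trimmed with Cutadapt, mapped with Bowtie2, TopHat2 and TopHat-Fusion, and circRNAs were called with CIRCExplorer2 and CIRI (the submitters' processing notes give cutadapt 1.9 and TopHat2 2.0.4). Whole-number counts of back-spliced reads, without normalization, are what the authors deposited for every circRNA. The authors also deposited a normalized signal, SRPBM, which equalled the count times 1 factor per library. The notes name the build mm9, but the members' circles had starts on GRCm38 exon starts in 161 of 181 exonic entries and 1 bp inside in 18, so positions are given as GRCm38. Of 100 members, 99 were found in GENCODE M21 by symbol.

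Counts were summed per host gene and tested with the edgeR quasi-likelihood test (TMM, reads in at least 2 libraries), with Benjamini-Hochberg adjusted p-values over all features tested, and single entries likewise. The approximate SE is the absolute log2 fold change divided by the square root of the F statistic. The common dispersion of host genes was 0.562. The script was tested on simulated data. The depth was 5384 to 6590 reads per library. The floor of 3 reads is a fixed value chosen to mark low counts. It was not derived from the depth and was not a filter in the tests. Alternatives were DESeq2 (size factors from positive counts), limma on log2(SRPBM + 0.26 or 1), no TMM, other filters, each library left out, the replicate number or the quality class in the model, the 4 libraries of the lower class, the leading entry in place of the sum, and joined entries 1 bp apart. The genes named were the 10 members with the most reads, those past the thresholds or with an entry past them, the 5 with the most entries, those with at least 20 reads and no overlap between diets, and the 3 with the most reads in each list of roles. Fam172a, Khdc4, Sfswap, Ddx17, Prmt9, Rbm39 and the regulators listed by total alone were named in addition, after their values were seen. Members and lists were chosen with earlier results of these data known. The edgeR version was 4.0.16 under R 4.3.3. DESeq2 was at 1.42.0 and limma at 3.58.1. Tables and figures were made in Python 3.11.15 (NumPy 2.4.6, pandas 2.3.3, matplotlib 3.10.9, SciPy 1.17.1).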

Additional observations from a re-analysis of the deposited data

How the results depend on the processing

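The number of members past both thresholds, 0 of 62, was 1 without TMM on either library size (Fam172a) and 1 in the 4 libraries of the lower quality class (Khdc4), and between 0 and 2 with a library left out, where Taf15 and Fam172a passed without HFD library 2, Khdc4 without HFD library 3 or LFD library 3 and Sfswap without LFD library 2. Over all host genes the 42 became 72 and 17 with limma (pseudocounts of 1 read and 1 SRPBM), 27 with the class in the model and between 29 and 46 with a library left out. Of member entries, 1 passed, but 0 with DESeq2, library sizes implied by SRPBM, no filter, limma at 1 SRPBM, the class in the model or the lower class alone. The number was 2 with reads in at least 3 libraries, 3 with limma at 1 read and 0 to 1 with a library left out. Over all entries, the 49 became 13 with DESeq2, 80 and 20 with limma, 13 with the class, 20 in the lower class and 18 to 48 with a library left out. The cause was not tested.

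Of the 25 genes named that were tested, 19 changed the sign of the log2 fold change under some alternative, and 6 (Dhx15, Ern1, Hnrnpll, Prpf6, Taf15 and Tra2b) did not. The alternatives reuse the same counts, so a kept sign is not independent evidence. Ern1, Dhx15 and Taf15 had only 7, 8 and 11 reads, most of them in 1 diet. With each library left out in turn, the log2 fold change ranged from -1.91 to 1.85 for Acin1, -0.67 to 0.87 for Cdk12, -0.28 to 0.42 for Cdk13, -0.088 to 0.39 for Cnot6l, -2.12 to 1.13 for Cpsf6 and -0.45 to 0.13 for Cstf3. For others it ranged from -3.24 to 3.48 for Ddx46, -0.41 to 0.024 for Gm20521, -0.45 to 0.20 for Gm21992, -0.46 to 0.28 for Pan3, -0.26 to 0.33 for Ptbp3 and -0.035 to 0.59 for Rbm4. It also ranged from -1.30 to 0.26 for Rsrc1, -3.54 to 2.60 for Scaf8, -0.28 to 0.61 for Srpk2, -1.57 to 0.005 for Tent4a and -0.77 to 0.85 for Zfp638. In the 4 libraries of the lower class it was -0.18 for Cdk13, 0.065 for Cstf3, -0.52 for Ptbp3, 3.05 for Scaf8 and -0.47 for Srpk2, and with the class in the model 0.13 for Scaf8 and 0.23 for Cdk12. With the largest entry in place of the sum it was -0.16 for Cnot6l, 0.015 for Gm21992, 0.012 for Qk, -0.21 for Rbm27, -0.73 for Srpk2 and -3.61 for Zfp638. The value of Srpk2 does not come from another circle. Its largest entry lacks the 6 reads of HFD library 1, which were listed at the partner entry 1 bp away. Rbm27 also had entries 1 bp apart. For Cdk12 the log2 fold change was 0.037 with the library sizes implied by SRPBM and 0.01 with no filter. It was 0.026 with reads in at least 3 libraries and 0.52 and 0.18 with limma. The difference in share, -0.214 percentage points, was 0.238 as a share of entries detected, and, in alternatives chosen after seeing the data, -0.397 in the lower class alone and -0.058 without the 10 leading members.

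The replicate numbers did not pair the samples. The correlations of deviations between same-numbered libraries were -0.105, 0.099 and -0.09, and the highest was 0.228, between HFD library 1 and LFD library 3. With the replicate block, 14 host genes, 10 entries and 0 member entries passed, and the log2 fold change was 0.27 for Cdk12 and -0.017 for Pan3. The 42 host genes that passed had at least 7 reads each. Of the 62 members tested, 26 had fewer and 36 had at least as many, beside 1018 of 1834 host genes tested with at least as many. The part of depth in these results was not tested.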
